A study of Mus musculus with 16 samples.

Results

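Ly6d, Cib3, Upk1b and Myl7 are 4 genes of 5205 listed in the deposited liver RNA-seq tables, and all 4 are listed for both genotypes. They were picked by name because their measured levels in these livers differed between the AMLN-fed genotypes and because each is better known from a tissue other than liver. The diet comparisons, the comparison of genotypes on AMLN and the difference in diet response all draw on the values that chose them, so counts of calls there are given as a description beside the share over all genes and nothing is read from them. Livers came from 16 male C57BL6 mice after 32 weeks on a low-fat diet (LF) or on the AMLN diet, which is rich in fat, fructose and cholesterol and induces steatohepatitis, with 4 mice in each of 4 groups. Control mice (TSP1F/F, labelled WT) carried a floxed gene for thrombospondin 1 and no Cre. TSP1ΔPf4 mice (labelled KO) carried the same floxed gene and the Pf4-Cre transgene, which is active in megakaryocytes and so in platelets. Both genotypes thus share the floxed allele, and the deletion was directed to the platelet lineage rather than to liver cells.

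Each gene has a known home outside the hepatocyte. Ly6d encodes a small surface protein of the LY6 family held in the membrane by a lipid anchor, and it is used as a marker of early B-lineage cells. Cib3 encodes a calcium-binding EF-hand protein of the CIB family that is known from sensory hair cells of the inner ear. Upk1b encodes uroplakin 1b, a tetraspanin of the bladder lining that pairs with other uroplakins in the membrane, and it is also known from mesothelium, the thin cell layer that covers the liver surface. Myl7 encodes the regulatory light chain of myosin in the atrium of the heart.

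All 4 genes lie on the reverse strand of mm10. Ly6d (ENSMUSG00000034634) spans chr15:74762056-74763620, Cib3 (ENSMUSG00000074240) chr8:72204335-72212837, Upk1b (ENSMUSG00000049436) chr16:38773184-38800328 and Myl7 (ENSMUSG00000020469) chr11:5896637-5898782. Their deposited lengths were 744, 2014, 2089 and 590 bases. The length used for Cib3 equals that of a transcript with a retained intron in GENCODE M21, whereas its coding transcript there has 585 bases, so its FPKM (counts scaled to this length in kilobases and to the library total) rests on the longer form.

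Promoter windows from RefSeq (GRCm38.p6) were matched for 2 of the 4 genes, Cib3 and Myl7. The window of Cib3 lies inside RefSeq's own span of that gene for 249 of 250 bases and is not shown. The 250 bases before the Myl7 start, chr11:5898783-5899032 on the reverse strand, are shown because Myl7 varied together with Cib3 and Upk1b and its start could be read, and capitals mark the motifs found on either strand.

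Myl7 promoter: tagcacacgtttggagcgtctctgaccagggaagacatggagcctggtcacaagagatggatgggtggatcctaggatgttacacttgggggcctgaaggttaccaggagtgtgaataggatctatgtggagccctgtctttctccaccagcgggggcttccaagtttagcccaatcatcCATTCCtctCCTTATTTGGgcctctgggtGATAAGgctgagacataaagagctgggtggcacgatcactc

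The capitals are, in order, GGAATG read on the opposite strand (bases 70 to 65 before the start), a CArG box (bases 61 to 52) and GATAAG (bases 41 to 36). No 2 of these matches overlap. Of 32807 promoter windows of this length, 1.47% held a CArG box, 12.6% held GGAATG and 6.55% held GATAAG, while TATAAA, present in 12.4%, was not found in that of Myl7. These matches describe letters in the window only.

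Library totals ranged from 17127965 to 39753019 counts across the 16 mice. Levels are given as CPM (counts per 1000000 of the library total). The tables hold 2558 genes for TSP1F/F and 3399 for TSP1ΔPf4, each selected by the authors for a diet difference, and 752 genes are in both, so a gene outside them was not assessed here. Because of that selection the diet comparisons start from a high background, and 47.2% of listed genes in TSP1F/F and 48.7% in TSP1ΔPf4 had diet groups whose 4 mice did not overlap. Thbs1, the deleted gene, is listed for TSP1F/F only, at 0.313 to 1.82 CPM on LF and 1.94 to 13.3 CPM on AMLN, so the deletion could not be checked in these liver values. By the mean chi-square per gene between counts of 2 mice, replicate 4 of the AMLN-fed TSP1ΔPf4 mice stood apart from its group (445 to 777, against 112 to 254 among the other 3), as did replicate 3 of the LF-fed TSP1F/F mice (389 to 723, against 223 to 343). In bulk liver RNA, fewer cells that express a gene and less RNA per cell cannot be told apart.

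Ly6d was the most abundant of the 4 genes per length in every group, with mean FPKM of 15.0 and 167 in LF-fed and AMLN-fed TSP1F/F mice and 10.1 and 38.9 in the TSP1ΔPf4 mice. In LF-fed TSP1F/F mice, Ly6d had 10.4, 10.4, 13.3 and 10.5 CPM, and AMLN-fed mice of this genotype had 140, 129, 145 and 84.3 CPM. Every AMLN-fed liver was thus above every LF-fed liver, and replicate 4 was the lowest of the AMLN-fed group. The means were 11.1 ± 1.46 and 124 ± 27.6 CPM (SD, n = 4 mice each), an 11.2-fold difference (log2 fold change 3.48, standard error 0.27).

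In TSP1ΔPf4 mice Ly6d was also higher on AMLN than on LF in 3 of 4 livers. The LF-fed mice had 6.43, 4.01, 10.3 and 9.28 CPM of Ly6d, and the AMLN-fed mice had 44.1, 27.9, 38.0 and 5.86 CPM. Replicates 1 to 3 on AMLN were above all LF-fed mice, while replicate 4 lay within the LF range. The means were 7.51 ± 2.86 and 29.0 ± 16.8 CPM (SD, n = 4), a 3.86-fold difference (log2 fold change 1.95, standard error 0.51). Without replicate 4 of the AMLN-fed TSP1ΔPf4 mice the log2 fold change was 2.29, and Ly6d then passed the threshold, as did 23 of 3089 genes tested (31 with all mice). Over the 316 genes in both tables that were higher in every AMLN-fed than in every LF-fed TSP1F/F mouse, the median log2 difference from the LF-fed TSP1ΔPf4 mean was 1.28 in the liver of replicate 4 and 1.20, 1.37 and 1.39 in the others, while its collagen sum, given further on, lay within the LF range. Being in both tables, these genes had also been selected for a diet difference in TSP1ΔPf4 mice, replicate 4 included. The raised medians were thus partly set by that choice. Between genotypes on AMLN, Ly6d did not overlap and was 4.29-fold lower in TSP1ΔPf4 mice (log2 fold change −2.10, standard error 0.48, and −1.76 without that replicate 4).

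Cib3 had a different pattern, higher on AMLN in TSP1F/F livers and lower on AMLN in TSP1ΔPf4 livers. The median gene tested moved the same ways, with log2 diet changes of 1.15 in TSP1F/F and −0.54 in TSP1ΔPf4 mice. In TSP1F/F mice it had 1.15, 1.66, 3.69 and 1.16 CPM on LF and 4.02, 3.46, 10.5 and 29.7 CPM on AMLN. The diet groups overlapped because LF replicate 3 exceeded AMLN replicate 2. The means were 1.92 ± 1.21 and 11.9 ± 12.3 CPM (SD, n = 4), and replicate 4 on AMLN, which had the lowest Ly6d of its group, had the highest Cib3. With that mouse left out, the log2 fold change went from 2.64 (standard error 0.73) to 1.65.

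In TSP1ΔPf4 mice Cib3 had 2.07, 1.69, 1.17 and 1.80 CPM on LF, and 1.07, 0.329, 0.861 and 0.215 CPM on AMLN. Here the groups did not overlap, with all AMLN-fed livers below all LF-fed livers. The means of 1.68 ± 0.379 and 0.618 ± 0.411 CPM (SD, n = 4) gave a log2 fold change of −1.42 (standard error 0.53). On AMLN, Cib3 was 18.8-fold lower in TSP1ΔPf4 than in TSP1F/F mice (log2 fold change −4.23, standard error 0.77), and −3.25 without replicate 4 of the TSP1F/F group. The highest AMLN-fed TSP1ΔPf4 liver held 32 reads of Cib3 and the lowest AMLN-fed TSP1F/F liver held 77.

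Upk1b varied widely among mice of one group. In TSP1F/F mice it had 0.783, 3.27, 0.717 and 0.225 CPM on LF and 2.42, 0.718, 9.81 and 3.87 CPM on AMLN, so an LF-fed mouse (replicate 2) lay above 2 of the 4 AMLN-fed mice. The means were 1.25 ± 1.37 and 4.20 ± 3.95 CPM (SD, n = 4), with a log2 fold change of 1.76 (standard error 0.90) that was 0.90 without AMLN replicate 3 and 2.88 without LF replicate 2.

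In TSP1ΔPf4 mice Upk1b had 1.12, 2.66, 0.234 and 0.371 CPM on LF, and 0.334, 0.0822, 0.223 and 0.129 CPM on AMLN. The diet groups overlapped, and the AMLN values rest on 2 to 10 reads. The mean was 1.09 ± 1.11 CPM on LF and 0.192 ± 0.111 CPM on AMLN (SD, n = 4), a ratio of 0.176. Between genotypes on AMLN the 4 mice of each group did not overlap, and Upk1b was 21.1-fold lower in TSP1ΔPf4 mice (log2 fold change −4.40, standard error 0.82). Without AMLN-fed TSP1F/F replicate 3 that log2 fold change was −3.54.

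Myl7 was the least abundant by counts. TSP1F/F mice had 0.678, 0.750, 0.165 and 1.09 CPM of Myl7 on LF and 0.696, 1.17, 3.27 and 3.16 CPM on AMLN, so replicates 2, 3 and 4 on AMLN stood above the LF range and replicate 1 lay within it. The means were 0.671 ± 0.381 and 2.07 ± 1.33 CPM (SD, n = 4), and the fitted log2 fold change was 1.61 (standard error 0.76). Per length the order of the genes differs, since Myl7 had a mean FPKM of 3.51 in AMLN-fed TSP1F/F livers and Upk1b 2.01.

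In TSP1ΔPf4 mice Myl7 had 1.06, 0.483, 0.467 and 0.212 CPM on LF, and 0.267, 0.164, 0.0638 and 0 CPM on AMLN, where it was counted 8, 4, 2 and 0 times. Replicate 4 on LF fell below the highest AMLN-fed mouse, so the diet groups overlapped. The mean was 0.556 ± 0.360 on LF and 0.124 ± 0.117 CPM on AMLN (SD, n = 4), a ratio of 0.223. On AMLN every TSP1ΔPf4 liver was below every TSP1F/F liver, and Myl7 was 15.9-fold lower (log2 fold change −3.99, standard error 0.89).

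**Figure D1:**
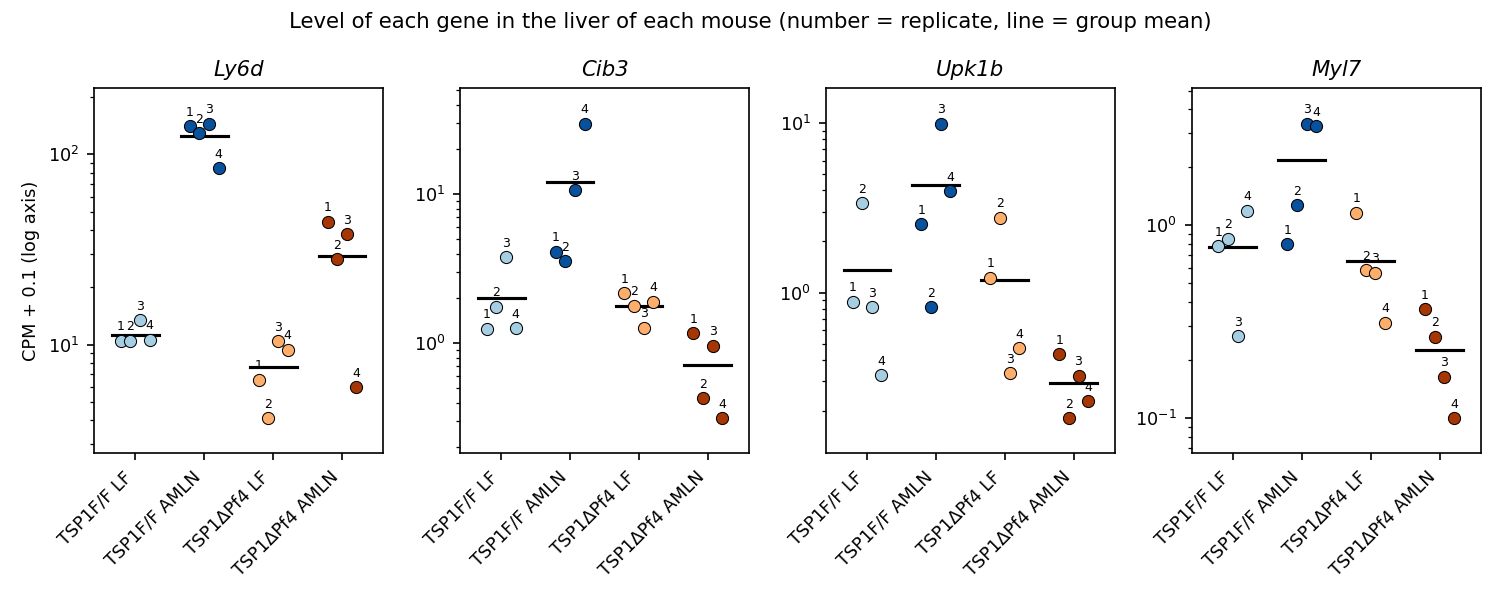
Level of each gene in the liver of every mouse, as CPM + 0.1 on a log axis, with 4 mice per group, the replicate number beside each point and a line at the group mean. AMLN-fed TSP1F/F livers were the highest group for each gene, and Ly6d was at 5.86 CPM in replicate 4 of the AMLN-fed TSP1ΔPf4 mice while the other 3 had 27.9 to 44.1 CPM.

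The order of the group means was the same for Cib3, Upk1b and Myl7. AMLN-fed TSP1F/F mice were the highest, LF-fed TSP1F/F and LF-fed TSP1ΔPf4 mice followed with overlapping ranges, and AMLN-fed TSP1ΔPf4 mice were the lowest. For Ly6d the AMLN-fed TSP1ΔPf4 mice came second in place of last. In the ranking of the 752 genes in both tables by mean FPKM, AMLN-fed TSP1F/F livers had 93.9% of genes below Ly6d, 59.8% below Cib3, 50.5% below Myl7 and 38.3% below Upk1b. In AMLN-fed TSP1ΔPf4 livers these shares were 85.1%, 12.9%, 8.1% and 3.5%.

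Read against all genes tested, the picture depends on the comparison. In edgeR's quasi-likelihood fits, calling a gene required an adjusted p under 0.05 together with an absolute log2 fold change over 0.25. For the diet in TSP1F/F, 1 of the 4 genes (Ly6d) was called beside a background of 1.96% of 2096 genes. In absolute size, the changes of Upk1b and Myl7 there exceeded those of 65.4% and 60.4% of genes tested. For the diet in TSP1ΔPf4 mice, 2 of the 4 genes passed the filter on low counts (Ly6d and Cib3), 0 were called beside a background of 1.00%, both had an unadjusted p under 0.05 as did 85.8% of all genes tested, and DESeq2 called 1 beside 38.4% of all genes. That filter left out Upk1b and Myl7 there, and without it their log2 differences were −2.46 (standard error 0.84) and −2.10 (standard error 0.90).

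For the genotypes on AMLN, all 4 genes were called lower in TSP1ΔPf4 mice beside a background of 9.00% of the 733 genes tested, and 14.6% of the genes in both tables had groups that did not overlap. With a replicate block, in which same-numbered mice of the 2 genotypes were paired, all 4 were also called, beside 15.8% of the genes tested. The labels do not say that same-numbered mice form pairs. Without TSP1ΔPf4 replicate 2 the number called was 2 (Cib3 and Upk1b), Ly6d was also lost without TSP1F/F replicate 3, and Myl7 without TSP1ΔPf4 replicate 3. In these fits 22, 43 and 30 of the 733 genes tested were called, against 66 with all mice. Over all genes tested the median log2 fold change on AMLN was −0.38 with counts scaled to library totals and −0.10 with TMM, and the values of the 4 genes lay 1.72 to 4.02 below that first median. For the difference in diet response between genotypes, the log2 estimates were −1.53 for Ly6d, −4.06 for Cib3, −4.22 for Upk1b and −3.71 for Myl7 (standard errors 0.61, 0.95, 1.31 and 1.21). Of these, 0 were called by edgeR beside a background of 0.409%, all 4 had an unadjusted p under 0.05 as did 15.0% of all genes tested, and DESeq2 called 2, Cib3 and Upk1b, beside 5.99% of all genes.

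**Figure D2:**
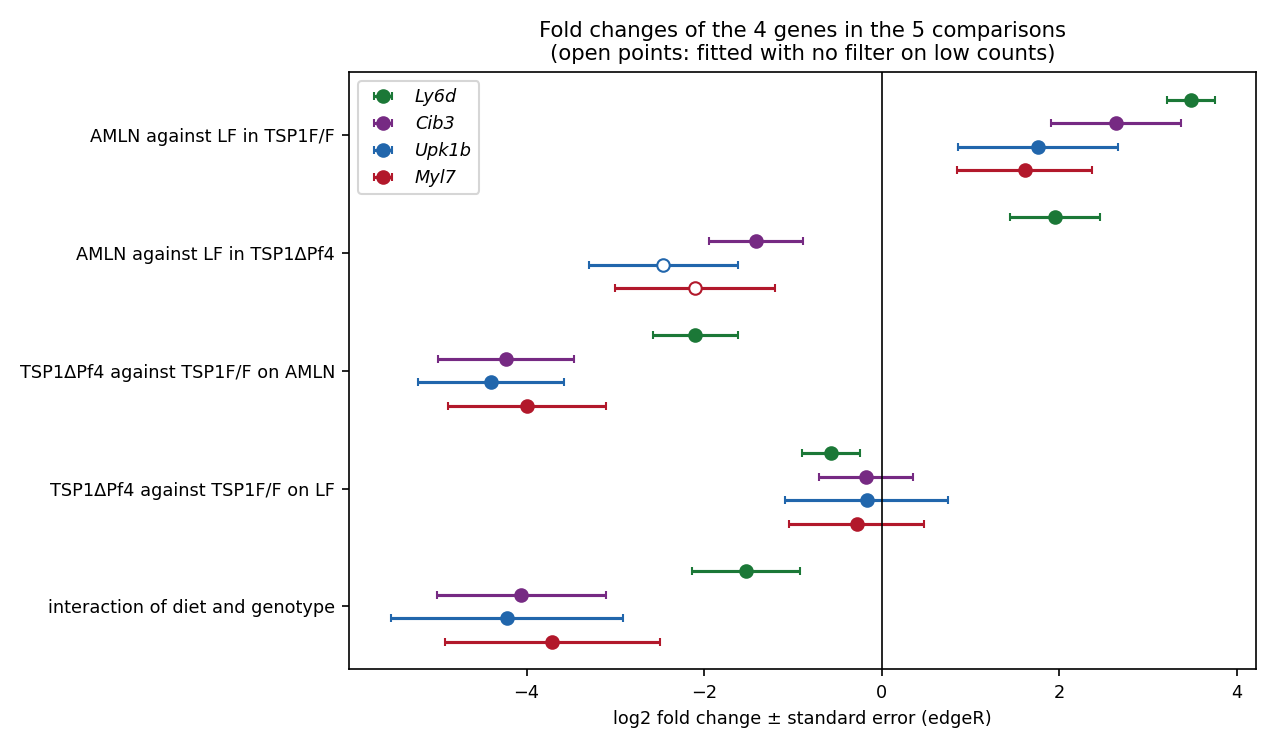
The log2 fold change of each gene in each comparison with its standard error from edgeR, where open points were fitted with no filter on low counts. Ly6d is above 0 for the diet in both genotypes, the other 3 genes are above 0 for the diet in TSP1F/F and below 0 in TSP1ΔPf4, and all 4 are below 0 for the genotype on AMLN. The diet median over all genes tested was 1.15 in TSP1F/F and −0.54 in TSP1ΔPf4.

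The comparison of genotypes on LF was not itself used to choose the genes. The same LF livers enter the diet comparisons, however, and every gene tested had been selected for a diet difference in both genotypes. The p-values here are thus not fully apart from that choice. There Ly6d was 1.48-fold lower in TSP1ΔPf4 mice (log2 fold change −0.57, 95% interval −1.30 to 0.17, Benjamini-Hochberg adjusted p = 0.676 in edgeR's quasi-likelihood fit). Its groups did not overlap, as was so for 4.52% of the genes in both tables, but the gap between 10.4 CPM in the lowest TSP1F/F mouse and 10.3 CPM in the highest TSP1ΔPf4 mouse was small. The log2 fold changes of Cib3, Upk1b and Myl7 were −0.18 (95% interval −1.34 to 0.98), −0.17 (−2.21 to 1.86) and −0.28 (−1.95 to 1.39), with adjusted p = 0.923, 0.965 and 0.911 from the same edgeR test. In all, 0 of the 4 genes were called beside a background of 0.00%, 0 of them had an unadjusted p under 0.05 (6.88% of the 640 genes tested did), and DESeq2 called 0 of them beside 0.156% of all genes. Without LF-fed TSP1F/F replicate 3 the log2 fold change of Cib3 was 0.35. The intervals of Upk1b and Myl7 include a 2-fold difference in either direction.

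Cib3, Upk1b and Myl7 followed each other across mice more closely than any of them followed Ly6d. Over the 16 mice, Pearson's r of log2(CPM + 0.1) was 0.79 for Cib3 with Upk1b, 0.79 for Cib3 with Myl7 and 0.74 for Upk1b with Myl7, and 0.35 to 0.56 for Ly6d with the others. The mice share the 4 groups, and after group means were removed the first 3 values were 0.46, 0.33 and 0.34. Those of Ly6d with Cib3, Upk1b and Myl7 were then 0.23, −0.12 and 0.15, so the pairs lay closer together within groups. These and the following correlations are descriptions.

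Among 673 genes in both tables with a mean of at least 1 CPM, the gene most like Upk1b was Upk3b, a uroplakin that pairs with uroplakin 1b, at r = 0.94 over 16 mice and 0.92 after group means were removed. It was followed by Gpm6a (0.88), a membrane glycoprotein, Msln (0.87), which encodes the mesothelial surface protein mesothelin, Nbl1 (0.86), an antagonist of bone morphogenetic proteins, and AU021092 (0.83). Gpm6a also led the list of Cib3 (0.80, then Upk1b, Upk3b, Cd34 and Siva1 at 0.79 to 0.74) and that of Myl7 (0.86, then Cib3, Upk3b, Upk1b and Cav1 at 0.79 to 0.73). The 5 genes most like Ly6d were others, namely Fabp4, a fatty acid carrier (0.89), the growth factor gene Nrg1 (0.89), the collagen gene Col3a1 (0.89), Micu2 of the mitochondrial calcium uniporter (0.88) and the tubulin gene Tubb2a (0.87). After group means were removed, r was 0.78 to 0.92 in the Upk1b list and 0.25 to 0.54 in that of Cib3. It was 0.33 to 0.73 in the Myl7 list and 0.37 to 0.56 in that of Ly6d. The values over 16 mice thus include the differences between groups.

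**Figure D3:**
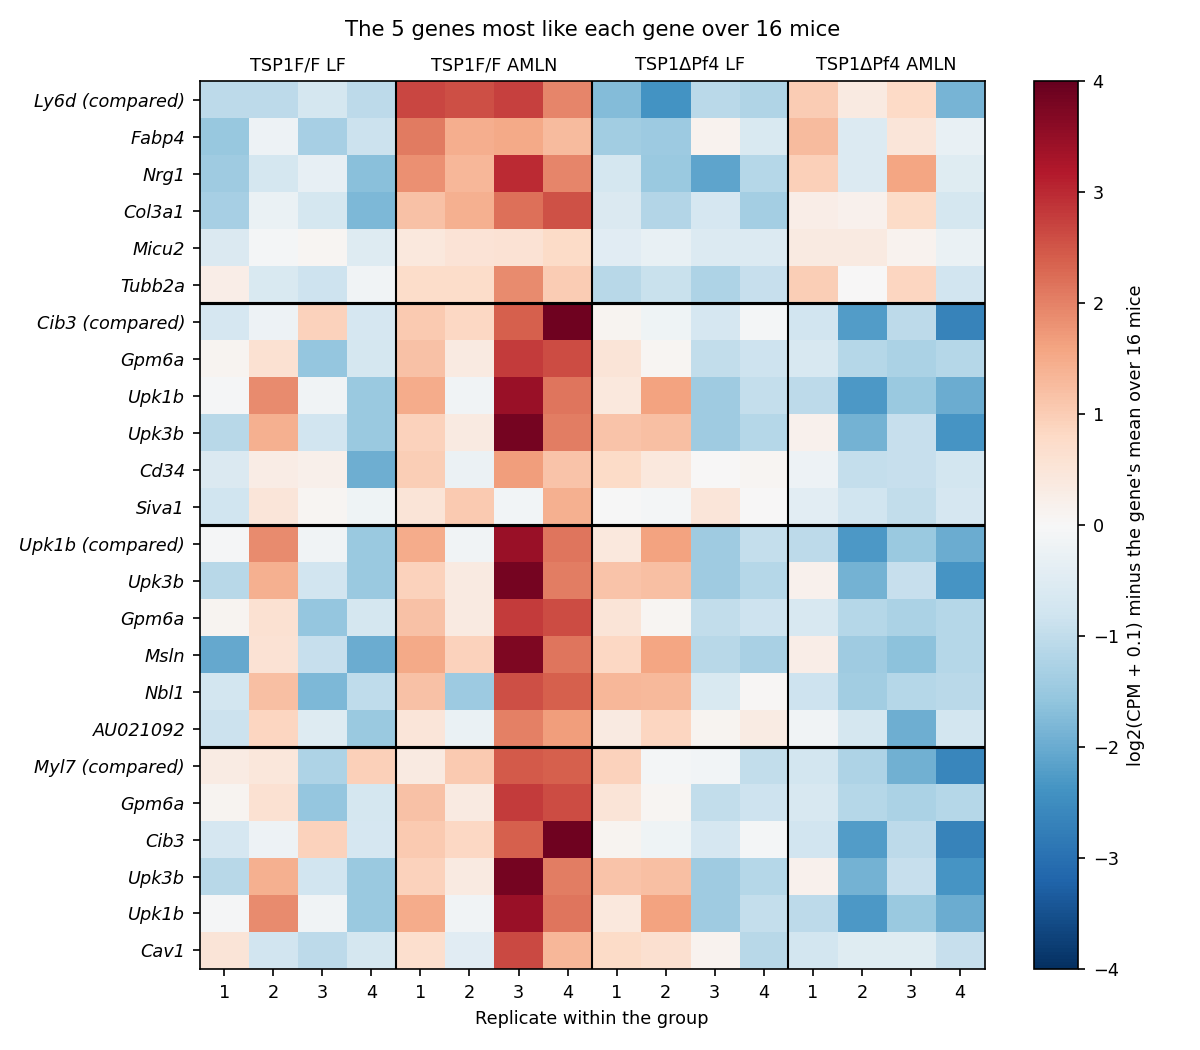
Colour gives log2(CPM + 0.1) minus the mean of each gene over 16 mice, with mice in columns by group and replicate and the 5 most similar genes in rows under each gene. Replicates 3 and 4 of the AMLN-fed TSP1F/F mice are above the mean in the blocks of Cib3, Upk1b and Myl7 except for Siva1 in replicate 3, whereas the Ly6d block is above the mean in all 4 of them.

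Markers of mesothelium moved with Upk1b, Cib3 and Myl7. Of 10 mesothelium markers, 7 are listed for TSP1F/F and 5 for TSP1ΔPf4, and Msln, Upk3b, Bnc1 and Gpm6a are listed for both. The summed level of these 4 markers ranged from 4.62 to 22.3 CPM on LF and from 16.4 to 133 CPM on AMLN in TSP1F/F mice, and from 5.14 to 24.4 CPM on LF and from 3.91 to 11.0 CPM on AMLN in TSP1ΔPf4 mice. The groups of AMLN-fed mice did not overlap in this sum, as was so for 14.6% of the single genes in both tables. The marker Bnc1 was at 0 in 3 livers across the 16. Upk3b in AMLN-fed TSP1F/F mice had 7.14, 4.85, 55.2 and 15.7 CPM, with the same highest and lowest mouse as Upk1b, and in AMLN-fed TSP1ΔPf4 mice it had 4.27, 0.946, 1.94 and 0.646 CPM.

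Across the 16 mice, r of each gene with this sum was 0.94 for Upk1b, 0.80 for Myl7, 0.79 for Cib3 and 0.51 for Ly6d, and after group means were removed it was 0.94, 0.61, 0.47 and −0.08. Among LF-fed mice, the 3 livers with the highest marker sum, TSP1F/F replicate 2 and TSP1ΔPf4 replicates 1 and 2 (22.3 to 24.4 CPM), also held the 3 highest Upk1b values of that diet, 3.27, 1.12 and 2.66 CPM. Of the mesothelium list, 3 genes could be tested between genotypes on AMLN and 3 were called lower (Gpm6a, Msln and Upk3b, log2 fold changes −3.13, −3.33 and −3.40), beside 9.00% of the 733 genes tested. Their median was −3.33 beside −0.38 for all genes tested. They could be tested because they are in both tables, and each is also in the list of genes most like Upk1b.

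**Figure D4:**
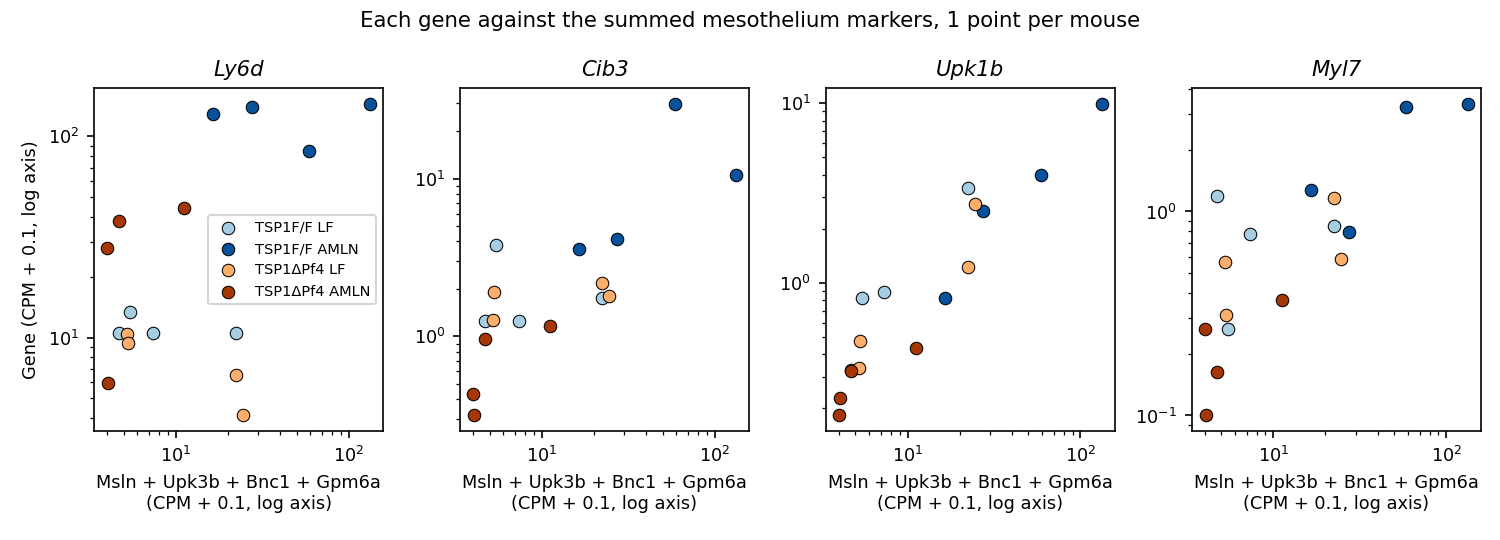
Each gene against the summed CPM of Msln, Upk3b, Bnc1 and Gpm6a, both as CPM + 0.1 on log axes, with 1 point per mouse coloured by group. Upk1b lies close to 1 line over all 16 mice (r = 0.94), Cib3 and Myl7 scatter about one, and Ly6d is higher in each AMLN-fed TSP1F/F mouse than in all other mice whatever the marker sum.

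The 3 genes were also set against the mesothelium markers within each group. Over group sums, Upk1b CPM was 32.7% of Upk3b CPM on LF and 20.3% on AMLN in TSP1F/F mice, and 21.6% and 9.84% in the corresponding TSP1ΔPf4 mice. Relative to the sum of the 4 markers, Cib3 was at 19.4%, 20.3%, 11.8% and 10.5% in the same order of groups, and Myl7 at 6.79%, 3.53%, 3.90% and 2.10%. Upk1b was at 12.6%, 7.15%, 7.68% and 3.26% of that sum. Over single mice, the ranges of each ratio overlapped between all groups, except for Upk1b over the sum of the 4 markers. That one spanned 4.88% to 14.7% in LF-fed TSP1F/F mice and 2.11% to 4.83% in AMLN-fed TSP1ΔPf4 mice. Upk1b over Upk3b spanned 17.6% to 46.9% on LF and 14.8% to 33.9% on AMLN in TSP1F/F mice. In TSP1ΔPf4 mice it spanned 13.2% to 30.2% on LF and went down to 7.81% on AMLN, where it rests on 2 to 10 reads of Upk1b. The part of mesothelial tissue in the levels of the 4 genes was not tested.

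A summed level of macrophage markers was set beside Cib3. In TSP1F/F mice the summed CPM of the 11 macrophage markers in both tables was 56.3, 127, 437 and 56.6 on LF and 471, 570, 719 and 2400 on AMLN. The mouse with the highest sum in each group, replicate 3 on LF and replicate 4 on AMLN, also had the highest Cib3. Lyz2 alone gave 379 CPM and 1500 CPM of these highest sums, so they do not stand for the 11 markers as a set. In TSP1ΔPf4 mice the macrophage sum was higher on AMLN (186 to 277 CPM) than on LF (58.1 to 128 CPM), while Cib3 was lower. The part of macrophages in the Cib3 level was not tested.

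Collagen and injury genes followed Ly6d in some groups and not in others. The summed CPM of 5 stellate cell and fibroblast genes (Col1a1, Col1a2, Col3a1, Lox and Pdgfrb) was 67.2, 61.4, 114 and 27.6 in AMLN-fed TSP1ΔPf4 mice, so that replicate 4, the mouse with Ly6d at the LF level, had the lowest collagen sum of its group, within the LF range. That sum was 101, 90.1, 182 and 179 CPM in AMLN-fed TSP1F/F mice, where replicate 4, the lowest in Ly6d, was among the highest. In LF-fed TSP1ΔPf4 mice it was 31.2, 27.9, 23.4 and 18.4 CPM, higher in replicates 1 and 2, which had the lower Ly6d. The sum of Anxa2, Anxa5 and Lcn2, listed as genes of injured hepatocytes, was 261, 174, 222 and 104 CPM in TSP1ΔPf4 mice on AMLN and followed the same order as Ly6d, from replicate 1 over replicates 3 and 2 down to replicate 4. In TSP1F/F mice on AMLN it was 554, 180, 371 and 175 CPM, against Ly6d of 140, 129, 145 and 84.3 CPM. In LF-fed TSP1ΔPf4 mice it was 94.1, 74.5, 52.0 and 53.5 CPM, again higher in the mice with the lower Ly6d. The part of these cells in the Ly6d level was not tested.

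The defining genes of the tissues the 4 names bring to mind were sparse in both tables. Of 17 atrial and cardiac muscle genes, 2 are listed for TSP1F/F (Bmp10 and Ttn) and 0 for TSP1ΔPf4, and Bmp10 was lower on AMLN (0.575 to 1.58 CPM) than on LF (2.10 to 2.84 CPM), opposite to Myl7. Of 10 urothelium genes, 2 are listed for each genotype, and Upk3b is the one in both. Upk1a, the other uroplakin that is a tetraspanin, had 0 to 1.40 CPM on LF and 0 CPM on AMLN in TSP1ΔPf4 mice.

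Of 10 inner ear hair cell genes, 0 and 1 are listed, the latter being the glutamate transporter gene Slc17a8. Of 13 B-cell and plasmacytoid dendritic cell genes, 3 are listed for TSP1F/F (Cd22, Cd79b and Tcf4) and 0 for TSP1ΔPf4. Of 15 squamous epithelium genes, 1 is listed (Sprr1a, a cornified envelope protein). In TSP1F/F mice Sprr1a was at 0 CPM in every liver on LF and at 1.60, 1.98, 5.69 and 0 CPM on AMLN. For the diet in TSP1F/F, the listed B-cell genes had log2 fold changes of 1.96 (Cd22), 1.29 (Cd79b) and 0.63 (Tcf4) and the listed urothelium genes 2.45 (Upk3b) and 2.77 (Krt7), none of them called by edgeR. Genes outside the tables were not assessed, and the part of these tissues in the levels of the 4 genes was not tested.

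Lists of other liver cells gave these counts between genotypes on AMLN, where 9.00% of all genes tested were called. Of 11 macrophage markers tested, 5 were called lower in TSP1ΔPf4 mice (median log2 fold change −1.18), and of 5 stellate cell and fibroblast genes 1 was called lower (median −0.14). Of 8 lipid droplet and PPAR gamma target genes 1 was called lower (median −0.09), and the only platelet gene in both tables, Plek, was called lower (−1.56). Of 5 hepatocyte genes (Ttr, Cyp7b1, Hsd3b5, Slco1a1 and Serpina1c) all 5 were above 0 (median 0.71) and not called, and the 3 injured hepatocyte genes were below 0 (median −0.89) and not called. Of 11 cholangiocyte genes 3 are listed for TSP1F/F and 2 for TSP1ΔPf4, with 0 in both.

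Few relatives of the 4 genes are listed. Of 27 other LY6 family genes, 3 are listed for TSP1F/F (Ly6i, Ly6k and Plaur) and 4 for TSP1ΔPf4 (Ly6a, Ly6e, Lynx1 and Cd59a), with 0 in both. Ly6k, 33.3 kb from Ly6d, was counted 0 times in all LF-fed TSP1F/F mice and 14 to 18 times in each AMLN-fed one. Lynx1, 9.0 kb from Ly6d, had 0.435 to 1.01 CPM on LF and 1.03 to 3.27 CPM on AMLN in TSP1ΔPf4 mice, and Ly6e (191.4 kb) had 65.5 to 189 and 147 to 269 CPM. Of 21 calcium-binding S100 and EF-hand genes, S100a11 is the one in both tables, at 2.03 to 4.50 CPM on LF and 14.8 to 26.0 CPM on AMLN in TSP1F/F mice, and at 2.18 to 5.52 and 4.87 to 13.7 CPM in TSP1ΔPf4 mice. Of 3 other CIB genes, Cib1 is listed for TSP1ΔPf4, at 53.8 to 97.9 CPM on LF and 34.8 to 49.1 CPM on AMLN.

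Of 11 other myosin light chains, Myl6b is listed for TSP1F/F (log2 fold change −1.63) and Myl6 for TSP1ΔPf4 (−0.84), neither of them called by edgeR, whereas Myl7 had 1.61 in TSP1F/F mice. Of 29 other tetraspanins, 7 were tested for the diet in TSP1F/F, 6 of them above 0 with a median log2 fold change of 1.83, beside 1.15 for all 2096 genes tested and 1.76 for Upk1b. The only listed gene within 200 kb of Upk1b was Igsf11, at 12.7 to 20.7 CPM on LF and 14.8 to 38.1 CPM on AMLN in TSP1ΔPf4 mice, with means of 18.0 and 30.4 CPM, while the mean of Upk1b was lower on AMLN. Within 200 kb of Cib3, 7 genes are listed, the nearest being Fam32a at 6.9 kb, which had 53.8 to 77.9 CPM on LF and 38.6 to 49.0 CPM on AMLN in TSP1ΔPf4 mice.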

How the data were processed

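Counts per gene were made by the authors from liver RNA sequenced as paired reads of 150 bases, aligned per the study's methods with STAR 2.7.8a to mm10. The submitters' processing notes name HISAT2 and DESeq2, so which aligner made these files is unclear. The counting program, annotation and strand setting were not given in the sources used here. The deposited signal columns hold counts divided by 1 size factor per library, and the deposited FPKM values are counts scaled to gene length and to a library total. Columns with the authors' fold changes and p-values were not used. Every column matched a sample.

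Library totals were recovered from counts, lengths and FPKM, and counts were scaled to them (CPM). The 4 genes and the 19 gene lists were chosen with earlier results of these data known. Named genes are the 4 genes, for each the 5 genes with the highest Pearson r of log2(CPM + 0.1) over 16 mice, listed genes within 200 kb, and of each list up to 4 genes with the highest FPKM. A result this rule covers is not reported here. Genes named as the members of a short count were named after their values were seen. Mice are separate animals. The labels do not say what a replicate number shares. Deviations of same-numbered mice correlated at 0.105 to 0.282 between genotypes on AMLN and at −0.312 to 0.350 in the other comparisons. The replicate block, run as an alternative in every comparison, took same-numbered mice as belonging together, which the labels do not state.

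Counts were tested with edgeR 4.0.16 in R 4.3.3 (filterByExpr, quasi-likelihood, Benjamini-Hochberg), after a check on simulated data. Diet comparisons used the 8 mice of 1 genotype and were adjusted over 20000 genes, taking genes outside the tables as not called. Genotype comparisons used the 8 mice of 1 diet, the difference in diet response all 16, and both covered only genes in both tables and were adjusted over those tested. The dispersions were estimated from genes the authors had selected, a limit on each p-value. Alternatives were TMM, DESeq2 1.42.0, no filter, a replicate block, all 16 mice in 1 fit, other adjustments and each mouse left out, with the authors' size factors added after seeing the data. Depth was 17127965 to 39753019 counts, and counting error dominates for genes under about 10 reads. Promoter windows come from RefSeq GRCm38.p6.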

Additional observations from a re-analysis of the deposited data

Results flagged for a closer look

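One value stood apart within its group. Ly6d in LF-fed TSP1F/F mice had 10.4, 10.4, 13.3 and 10.5 CPM, and the gap from replicate 3 to the nearest other mouse took 0.972 of the group's whole range, above Dixon's critical value for 4 samples. Of the 16 groups of the 4 genes examined this was the 1 group flagged, and chance gives about 1 in 20. The same mouse had the highest Cib3 (3.69 CPM) and the highest macrophage marker sum (437 CPM, most of it Lyz2) of its group.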

How the results depend on the processing

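In every alternative run the direction held for the 4 genes in the TSP1F/F diet comparison, on AMLN and in the difference in diet response, and in the TSP1ΔPf4 diet comparison for Ly6d and Cib3, the 2 that passed the filter there. DESeq2 called 2 of the genes for the diet in TSP1F/F (Ly6d and Cib3), beside 686 of 2096 genes tested. It called 1 in TSP1ΔPf4 (Ly6d), beside 38.4% of all genes. For the difference in diet response it called 2 (Cib3 and Upk1b), beside 5.99%, and TMM called 1 (Cib3), beside 15 of 734 genes. Adjusting over listed genes only gave 2 called in each diet comparison (Ly6d and Cib3). That stood beside 1124 of 2096 genes tested in TSP1F/F and 2187 of 3089 in TSP1ΔPf4. With 1 mouse left out, the number called ranged from 0 to 1 for the diet in TSP1ΔPf4, 2 to 4 on AMLN and 0 to 1 for the difference in diet response. On AMLN, Ly6d and Myl7 were lost without TSP1ΔPf4 replicate 2, Ly6d without TSP1F/F replicate 3 and Myl7 without TSP1ΔPf4 replicate 3. Calls over all 733 genes then fell from 66 to 22, 43 and 30. For the difference in diet response, Cib3 was gained without LF-fed TSP1F/F replicate 3 or AMLN-fed TSP1F/F replicate 1 or 2, and Upk1b without LF-fed TSP1F/F replicate 2. Calls over all 734 genes there rose from 3 to 10, 6, 23 and 12 in that order. On LF the log2 fold change reversed for 3 genes, ranging from −0.36 to 0.35 for Cib3, −1.10 to 0.94 for Upk1b and −0.79 to 0.06 for Myl7. Apart from the lower sample number or smaller adjustment, the cause was not tested.

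Counts of genes called moved more. For the diet in TSP1F/F, 41 (39 higher, 2 lower) became 686 with DESeq2 (264 higher, 422 lower), 65 with no filter, 1124 over listed genes only (807 higher, 317 lower) and 3 with a replicate block. In TSP1ΔPf4, 31 (22 higher, 9 lower) became 99 with TMM (87 higher), 1187 with DESeq2, 2187 over listed genes only (825 higher) and 4 with the block. On AMLN, 66 (4 higher) became 48 with TMM (11 higher), 73 with DESeq2 (17 higher) and 116 with the block (13 higher). For the difference in diet response, 3 became 15, 44 and 0 with TMM, DESeq2 and the block. The replicate block left the number of the 4 genes called at 1, 0, 4, 0 and 0 in the 5 comparisons. With 1 mouse left out, the counts over all genes ranged from 1 to 43 and 0 to 87 for the diet in TSP1F/F and TSP1ΔPf4, 22 to 83 on AMLN and 0 to 23 for the difference in diet response, so the background shares rest on single mice. With a pseudocount of 1, the 5 most similar genes shared 3, 2, 5 and 4 with those given for Ly6d, Cib3, Upk1b and Myl7. Depth limits Upk1b and Myl7 in AMLN-fed TSP1ΔPf4 mice, at 10 reads or fewer a mouse.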
